A study of Mus musculus with 2 samples.

Results

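Solute carriers are the largest group of membrane transporters in mammals, and 126 of them were described here by family, in mouse embryonic stem cells (ESCs) with unedited Sox2 and in a Sox2 T258A clone. The genes were chosen by symbol and by expression level: a symbol of the form Slc, number, a, number and a TPM (length-normalised relative abundance, with the same sum in each library) averaging at least 5 over both libraries. Left out were 13 carriers, mainly of amino acids and glucose, and Slc25a31 of the mitochondrial family was among them. Of 332 genes with such a symbol in a table of 24532 genes, 137 reached that level, 11 of which were among those left out. The remaining 126 came from 39 families. Just inside the limit were Slc38a9 at a mean TPM of 5.28, Slc26a11 at 5.41 and Slc38a6 at 5.50, and just outside it were Slc30a3 at 4.80, Slc25a27 at 4.70 and Slc16a10 at 4.64. The mean level chose the genes and is not a result, and of the excluded carriers only counts are given.

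A solute carrier moves its substrate along a gradient or couples it to that of another ion, and does not hydrolyse ATP itself. Families are numbered by sequence: Slc25 proteins lie mainly in the mitochondrial inner membrane, Slc30 proteins move zinc out of the cytosol and Slc39 proteins move it in, and Slc16, Slc27 and Slc44 handle monocarboxylates, fatty acids and choline. ESCs divide fast, and carriers supply them with phosphate, nucleosides, metal ions and exchange of metabolites with mitochondria.

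One library was made from each of 2 cultures. E14 is an established mouse ESC line, grown in serum with LIF. E14-Sox2 TA/WT is an E14 derivative in which 1 Sox2 allele was changed by CRISPR/Cas9 so that threonine at an O-GlcNAc site is replaced by alanine (T258A), the other allele staying wild type. It was a clone, routinely kept in serum and LIF to which 2i (PD0325901 and CHIR99021) was added. The 2i was withdrawn some passages ahead of the experiment, so the effects of genotype, of the clone and of its culture cannot be told apart. With 1 library per genotype there was no replicate error and no test. Each difference below is a log2 TPM ratio, E14-Sox2 TA/WT over E14, with an exact 95% Clopper-Pearson interval that covers counting error alone, and a gene is counted as different when the ratio is past 2-fold. PCR copies are not independent molecules, so these intervals are too narrow.

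The gene table held 60263536 reads for E14 and 44609228 for E14-Sox2 TA/WT, and the 126 carriers held 0.816% and 0.747% of them. Every carrier had at least 143 reads in each library. Sox2 itself had TPMs of 372.5 (E14) and 274.2 (E14-Sox2 TA/WT), and a table of counts cannot show the edited codon. ESC markers, 7 genes (Pou5f1, Sox2, Nanog, Zfp42, Esrrb, Dppa5a and Utf1) were all expressed, with a summed TPM of 10953 and 8158, of which Dppa5a made 6877 and 4429. Nanog was past 2-fold lower (TPM 527 and 251, log2 ratio -1.07), and Pou5f1, Esrrb and Utf1 were at 0.03, 0.10 and 0.24. Of markers of other cells, 7 of feeder fibroblasts summed to 43.1 and 16.6, with Dcn, Lum and Postn at 0 reads. Thy1 made most of that sum (40.1 and 11.4), while Col3a1 was at 0.08 and 1.28 and Col1a2 at 0.26 and 0.98. The 6 markers of primitive endoderm summed to 40.4 and 15.8, and all 6 were lower. The 6 of trophoblast summed to 63.1 and 35.9, with Elf5 at 0 reads: Tfap2c was at 50.9 and 16.1 and Krt7 at 8.84 and 4.03, whereas Cdx2 was at 0.47 and 12.2 and Gata3 at 0.32 and 0.73. The 5 of neural progenitors summed to 11.3 and 49.3, of which Nes made 6.67 and 36.2. The part of these differences in the carrier values was not tested, and in a bulk library fewer cells of a type and less RNA per cell cannot be told apart.

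Most carriers had similar levels in both libraries. Of the 126, 90 (71.4%) lay within 1.5-fold, beside 74.7% of all 10337 genes at the same mean level (the expressed genes below). A total of 6 carriers (4.76%) were more than 2-fold higher in E14-Sox2 TA/WT, against a background of 4.2% of all genes, and 8 (6.35%) were more than 2-fold lower, against 4.43%. At 1.5-fold, 15 were higher (11.9%, background 14.3%) and 21 lower (16.7%, background 11%). The shares past 2-fold were thus near those of all genes. The background of 4.2% and 4.43% also stands beside the counts of other transport and metal genes below. On the ratio of FPKM, which is scaled to total reads and lowers the median of all genes by 0.14 on the log2 scale, the split was 4 higher and 10 lower. The median log2 ratio was -0.07 over the carriers and 0.07 over all genes, and their summed TPM was 6340 for E14 and 6244 for E14-Sox2 TA/WT. By sign, 56 carriers were higher and 70 lower, beside 5834 higher and 4503 lower of all expressed genes, and the sign counts of the classes below stand beside these. The classes were set by Slc family, so some members carry a substrate other than that of the class name. For 24 carriers the sign depended on how the libraries were scaled or on a correction for GC content and length. None of these was over 0.30 in size on the log2 scale.

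**Figure D1:**
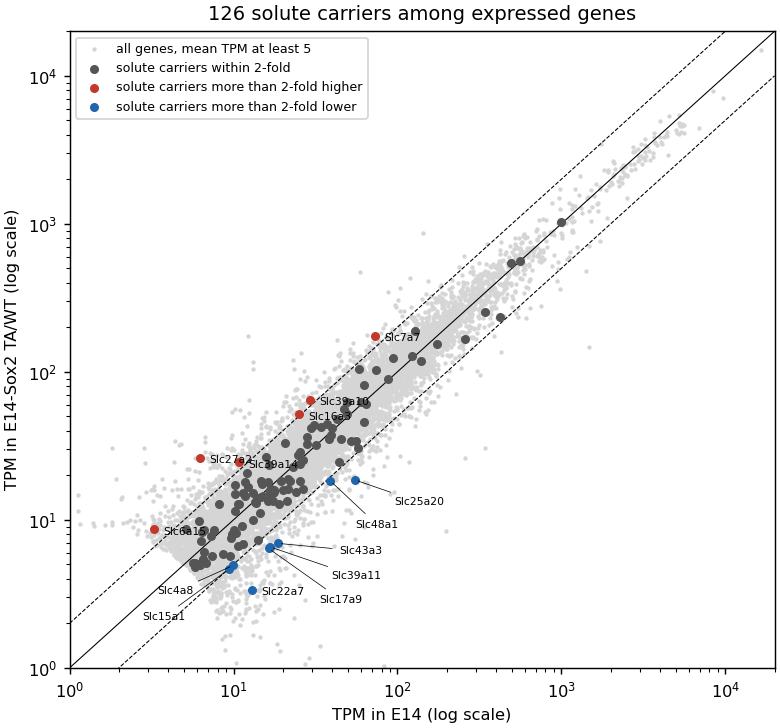
TPM in E14 (horizontal, log scale) against TPM in E14-Sox2 TA/WT (vertical, log scale), 1 point per gene, for the 126 solute carriers over the expressed genes. Of the 10337 expressed genes, those with a TPM under 1 in either library lie outside the axes and are not shown. The solid line marks equal levels and the dashed lines 2-fold, and the 6 red and 8 blue carriers lie outside them on either side.

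The 6 carriers more than 2-fold higher move fatty acids, amino acids, zinc and lactate. Slc27a2 (chromosome 2, 126553024 to 126588243, GRCm38), a very-long-chain acyl-CoA synthetase that also takes up fatty acids, was at TPMs of 6.24 (E14) and 26.3 (E14-Sox2 TA/WT), from 453 and 1279 reads. Its log2 ratio of 2.08 (1.92 to 2.23) was the highest of the 126 carriers, and 9.15% of its 75-base stretches also occur in the antisense gene Gm26697. Slc6a15 (chromosome 10, 103367808 to 103419379), a carrier of branched-chain amino acids and proline, was at 3.28 and 8.62, a log2 ratio of 1.39 (1.20 to 1.58). Slc7a7 (chromosome 14, 54369442 to 54420068), the light chain of a cationic and neutral amino acid exchanger, was the most abundant of the 6, at 73.5 and 175.8 with 5030 and 8110 reads, a log2 ratio of 1.26 (1.21 to 1.31). Of the carriers higher, 2 are zinc importers. Slc39a14 (chromosome 14, 70303467 to 70351452), which also carries iron and manganese, was at 10.8 and 24.5, a log2 ratio of 1.18 (1.09 to 1.27). Slc39a10 (chromosome 1, 46807544 to 46925776) was at 29.5 and 64.9, a log2 ratio of 1.14 (1.08 to 1.19). Slc16a3 (chromosome 11, 120948484 to 120959000), which exports lactate, was at 25.1 and 51.8, a log2 ratio of 1.04 (0.96 to 1.13). The whole interval lay past 2-fold for all but Slc16a3. Slc39a10 was under 2-fold on the FPKM ratio (0.995) and with GC and length trends removed (0.85), and Slc16a3 on the FPKM ratio (0.90) and after centring (0.97).

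The 8 carriers more than 2-fold lower differ in substrate and compartment. Slc22a7 (chromosome 17, 46432185 to 46438477), an organic anion transporter, had the lowest ratio, with TPMs of 12.97 (E14) and 3.36 (E14-Sox2 TA/WT), from 821 and 143 reads and a log2 ratio of -1.95 (-2.21 to -1.69). Slc25a20 (chromosome 9, 108662136 to 108684642), which exchanges acylcarnitine for carnitine across the mitochondrial inner membrane, was at 54.8 and 18.6, a log2 ratio of -1.56 (-1.68 to -1.44). It was the most abundant of the 8. Slc43a3 (chromosome 2, 84936545 to 84958509), a purine nucleobase carrier in a family of amino acid carriers, was at 18.7 and 6.93, a log2 ratio of -1.43 (-1.59 to -1.27). Slc17a9 (chromosome 2, 180724576 to 180742280), which loads ATP into vesicles, was at 16.4 and 6.40, a log2 ratio of -1.35 (-1.54 to -1.17). Slc39a11 (chromosome 11, 113244851 to 113650200), a zinc carrier of internal membranes, was at 16.7 and 6.57, a log2 ratio of -1.34 (-1.51 to -1.18). For these 5 the whole interval lay past 2-fold, and for the next 3 it did not. Slc48a1 (chromosome 15, 97784365 to 97792692), a heme carrier of endosomes and lysosomes, was at 38.9 and 18.4, a log2 ratio of -1.08 (-1.19 to -0.98). Slc4a8 (chromosome 15, 100761747 to 100823971), a sodium-driven chloride and bicarbonate exchanger, was at 9.98 and 4.92, a log2 ratio of -1.02 (-1.11 to -0.93). Slc15a1 (chromosome 14, 121459621 to 121505254), a proton-coupled peptide carrier, was at 9.35 and 4.63, a log2 ratio of -1.01 (-1.21 to -0.83). Among the 14, Slc6a15 was under a TPM of 5 in E14, and Slc22a7, Slc4a8 and Slc15a1 were under it in E14-Sox2 TA/WT.

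**Figure D2:**
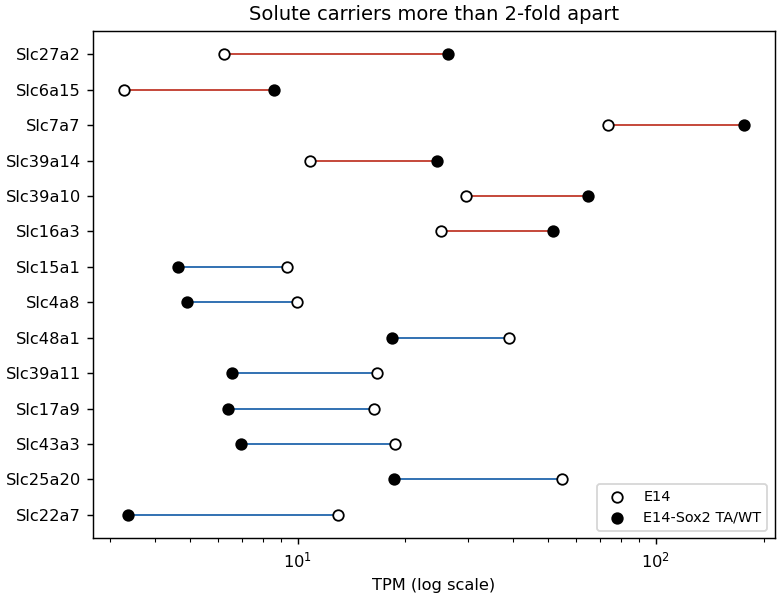
TPM (log scale) of the 14 carriers more than 2-fold apart in E14 (open circles) and E14-Sox2 TA/WT (filled circles), 1 library each, joined by red lines where higher and blue where lower in E14-Sox2 TA/WT. The filled circles run from 3.36 for Slc22a7 to 175.8 for Slc7a7.

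Promoter windows from RefSeq (GRCm38.p6, 250 bases before to 50 after each start) were found for 94 of the 126 carriers, 133 windows in all, and for 8 of the 14 past 2-fold. The edited protein is a DNA-binding factor of the Sox family, so the windows were searched on both strands for the Sox letters CATTGTT and CTTTGTT. They were in 3.01% of the carriers' windows, 5.36% of the windows of the expressed genes and 9.36% of all windows. Among the carriers past 2-fold they stood in 1 of 9 windows of those higher, of Slc39a10, and in 1 of 5 windows of those lower, of Slc15a1. The 250 bases before these starts are shown 5′ to 3′ on the strand of the gene, with CTTTGTT, here on the opposite strand, in capitals. The Slc39a10 window is chr1:46925777-46926026 (minus strand, 1 of 2 windows, the other without these letters), and the Slc15a1 window is chr14:121505255-121505504 (minus strand).
Slc39a10: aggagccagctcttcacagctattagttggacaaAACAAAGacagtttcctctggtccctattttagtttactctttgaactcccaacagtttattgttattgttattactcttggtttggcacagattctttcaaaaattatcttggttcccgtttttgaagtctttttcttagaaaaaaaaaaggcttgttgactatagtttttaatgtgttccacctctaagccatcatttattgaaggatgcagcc
Slc15a1: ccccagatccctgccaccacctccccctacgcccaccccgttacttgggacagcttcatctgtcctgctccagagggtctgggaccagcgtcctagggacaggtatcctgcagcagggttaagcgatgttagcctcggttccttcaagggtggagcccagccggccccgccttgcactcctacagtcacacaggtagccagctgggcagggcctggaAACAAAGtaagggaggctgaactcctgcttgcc
The core letters of the metal response element, TGCACNC and TGCGCNC, were in 33.8% of the carriers' windows, 36.8% of those of the expressed genes and 25.7% of all windows. Among the carriers past 2-fold they stood in windows of Slc27a2, Slc25a20, Slc15a1 and Slc39a11. Of these, Slc39a11 is the only metal carrier and Slc27a2 the carrier with the highest ratio, and the 250 bases before their starts are shown with the letters, here on the opposite strand, in capitals, for Slc39a11 at chr11:113565816-113566065 (minus strand, 1 of 2 windows) and for Slc27a2 at chr2:126552774-126553023 (plus strand).
Slc39a11: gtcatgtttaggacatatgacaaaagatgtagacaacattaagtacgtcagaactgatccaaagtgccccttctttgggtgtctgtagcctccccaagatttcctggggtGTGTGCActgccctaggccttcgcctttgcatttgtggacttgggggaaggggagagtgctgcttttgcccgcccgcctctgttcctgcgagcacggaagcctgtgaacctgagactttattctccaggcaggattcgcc
Slc27a2: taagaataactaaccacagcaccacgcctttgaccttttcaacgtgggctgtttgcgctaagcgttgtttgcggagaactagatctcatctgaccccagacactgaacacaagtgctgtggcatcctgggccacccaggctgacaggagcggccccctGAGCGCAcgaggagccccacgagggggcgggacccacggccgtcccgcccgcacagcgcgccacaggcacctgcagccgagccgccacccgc
These matches are letters in a window and no measure of binding. The letters TGATGNAA (Atf4) were in 2.26% of the carriers' windows, TGACNNNGC (Nrf2) in 21.8% and the E-box CACGTG in 16.5%, beside 2.001%, 14.2% and 10.6% of the windows of expressed genes. Median GC content was 61.3% in both sets.

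The Slc25 mitochondrial carriers were the largest family, with 30 members, and 21 of them had a lower TPM in E14-Sox2 TA/WT. Their median log2 ratio was -0.12, and it ran from -0.26 to -0.11 under other scalings. The abundant members were close to equal. Slc25a5 and Slc25a4, which exchange ADP for ATP, were at TPMs of 991 and 495 for E14 and 1026 and 546 for E14-Sox2 TA/WT, log2 ratios of 0.05 (0.03 to 0.07) and 0.14 (0.11 to 0.18), and 19.8% of the 75-base stretches of Slc25a5 occur in another gene. The phosphate carrier Slc25a3 was at 559 and 557. Of the next most abundant, Slc25a39, which brings glutathione into mitochondria, was at 424 and 235, a log2 ratio of -0.85 (-0.89 to -0.82), while its relative Slc25a40 was at 20.5 and 32.8, a log2 ratio of 0.68 (0.58 to 0.77). The related genes thus differed in sign.

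Below Slc25a20, the lowest Slc25 ratios were those of Slc25a42, which imports coenzyme A, at -0.95 (TPM 14.1 and 7.30), and of the pyrimidine nucleotide carrier Slc25a33 at -0.91 (57.1 and 30.3). The other pyrimidine nucleotide carrier, Slc25a36, was at 175 and 154, a log2 ratio of -0.19. Slc25a28, a mitoferrin that supplies iron for heme and iron-sulfur clusters, was at -0.61 (52.3 and 34.2), and the other mitoferrin, Slc25a37, was at -0.18 (17.3 and 15.2). At the other end stood Slc25a14, of the uncoupling protein group, at 0.77 (5.11 and 8.70), and the ornithine carrier Slc25a15 at 0.32 (34.1 and 42.6). The citrate carrier Slc25a1 was at -0.25, the oxoglutarate carrier Slc25a11 at -0.09, and the aspartate and glutamate carriers Slc25a12 and Slc25a13 at -0.14 and 0.02. Of 12 other genes of mitochondrial membrane transport, none was past 2-fold higher and 1 lower: Mpc1, a subunit of the pyruvate carrier, at 67.3 and 29.2, a log2 ratio of -1.20. Its partner Mpc2 was at 32.9 and 20.6, and the outer membrane channels Vdac1, Vdac2 and Vdac3 had log2 ratios of 0.27, 0.26 and 0.20.

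**Figure D3:**
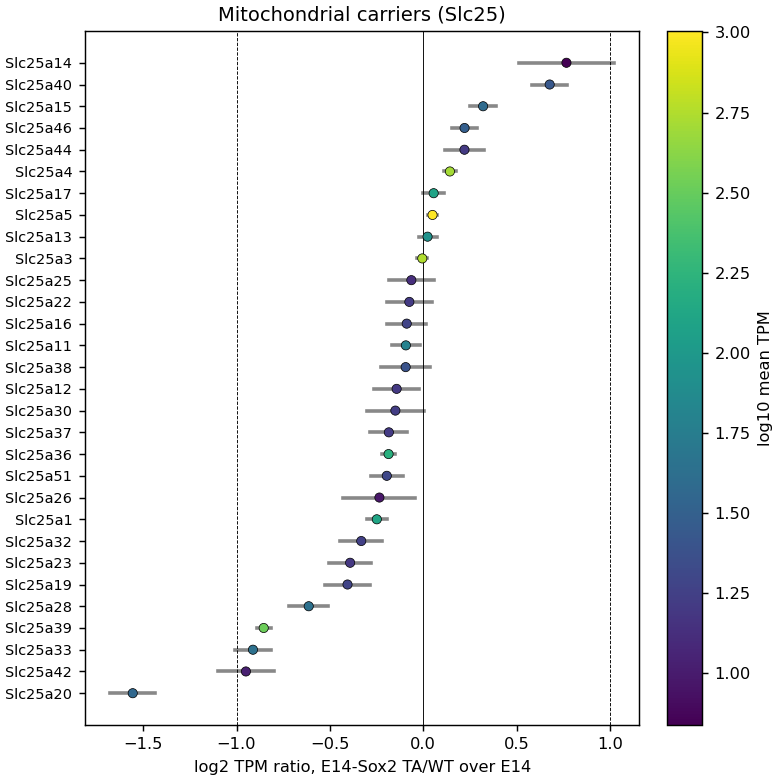
log2 TPM ratio (E14-Sox2 TA/WT over E14, horizontal) of the 30 Slc25 carriers, with 95% counting intervals as bars and colour for log10 of the mean TPM. The solid line marks 0 and the dashed lines 2-fold; Slc25a20 at -1.56 is the only point past them, and the abundant Slc25a3, Slc25a4 and Slc25a5 lie near 0.

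Metal and heme carriers numbered 19, of which 12 were higher and 7 lower, with a median log2 ratio of 0.16 (0.02 to 0.15 under other scalings). The 9 Slc39 zinc importers held 3 of the 4 members past 2-fold, in both directions. Beside Slc39a14, Slc39a10 and Slc39a11, the ratio of Slc39a4, a zinc importer of the cell surface, was -0.84 (TPM 44.3 and 24.8), that of Slc39a1 was 0.51 (30.8 and 44.0), and that of Slc39a7, which releases zinc from the endoplasmic reticulum, was 0.40 (93.7 and 124). Slc39a7 shares 71.6% of its 75-base stretches with Gm20427 and Slc39a1 shares 17.9% with Slc39a1-ps, so their values are uncertain. The 5 Slc30 exporters spread less: Slc30a2 was at -0.58, Slc30a1 at 0.28, and Slc30a5, Slc30a6 and Slc30a9 between -0.01 and 0.16. The metallothioneins, which bind zinc in the cytosol, were both more than 2-fold lower, Mt1 at 645 and 271 (log2 ratio -1.25) and Mt2 at 1407 and 477 (-1.56). With GC and length trends removed, Mt1 was under 2-fold (-0.95) and Mt2 was at -1.26. Mtf1, the zinc sensor that drives them, was at 7.21 and 7.40.

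**Figure D4:**
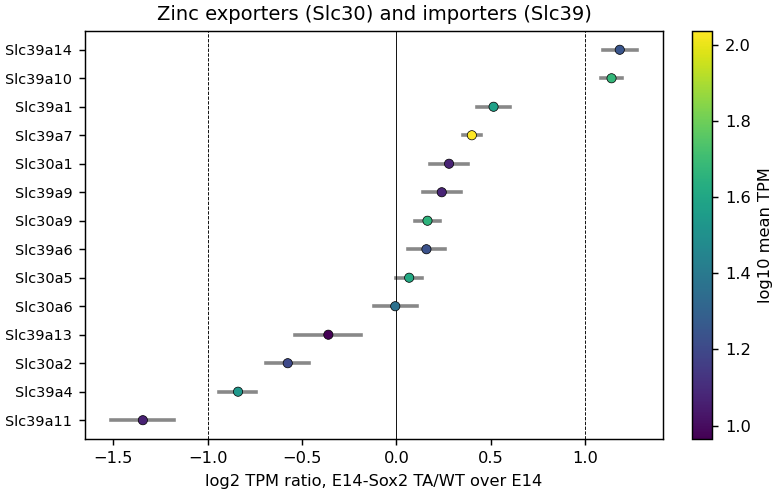
log2 TPM ratio (E14-Sox2 TA/WT over E14, horizontal) of the Slc30 zinc exporters and Slc39 zinc importers, with 95% counting intervals as bars and colour for log10 of the mean TPM. The solid line marks 0 and the dashed lines 2-fold: Slc39a14 and Slc39a10 lie beyond 2-fold on the higher side, Slc39a11 on the lower side, and all Slc30 genes inside.

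For iron, the carrier Slc11a2, which moves ferrous iron out of endosomes, was at TPMs of 24.6 and 27.4, a log2 ratio of 0.16. Tfrc, the transferrin receptor, was more than 2-fold higher, at 70.8 and 159 (log2 ratio 1.16), and Steap3, the endosomal ferrireductase, more than 2-fold lower, at 26.5 and 9.59 (-1.47). Among the storage proteins, Fth1 was at -0.53 and Ftl1 at -0.12. Thus 2 of the 6 expressed iron genes were past 2-fold, and they differed in sign. Of all expressed genes, 4.2% were past 2-fold higher and 4.43% lower. With GC and length trends removed, Tfrc was under 2-fold (0.75) and Steap3 was at -1.44. The copper carriers Slc31a1 and Slc31a2 were at -0.11 and 0.17, the magnesium carrier Slc41a1 at 0.32, and none of 4 expressed copper handling genes was past 2-fold.

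Of 11 carriers of carboxylates, lipids and acetyl groups, 9 had a ratio above 0, where 5834 of all 10337 expressed genes did, and the median was 0.42. Of 4 Slc27 fatty acid genes, Slc27a2 was far above the rest, Slc27a3 was at 0.42 (TPM 11.4 and 15.3), Slc27a4 at -0.06, and Slc27a1 at -0.46 (25.3 and 18.3). The lactate and pyruvate carrier Slc16a1, the most abundant of the class, was at 62.3 and 81.2, a log2 ratio of 0.38 (0.34 to 0.43), and Slc16a6 was at 0.36. Slc16a1 was at 0.14 and Slc16a6 at 0.38 once GC and length trends were removed. The accessory proteins of these carriers were Bsg at 462 and 367 (-0.33) and Emb at 70.7 and 117 (0.73). Slc10a7 was at 0.76 (15.8 and 26.7), Slc33a1, which carries acetyl-CoA into the endoplasmic reticulum, at 0.54, and the choline carriers Slc44a1 and Slc44a2 at 0.51 and 0.00.

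**Figure D5:**
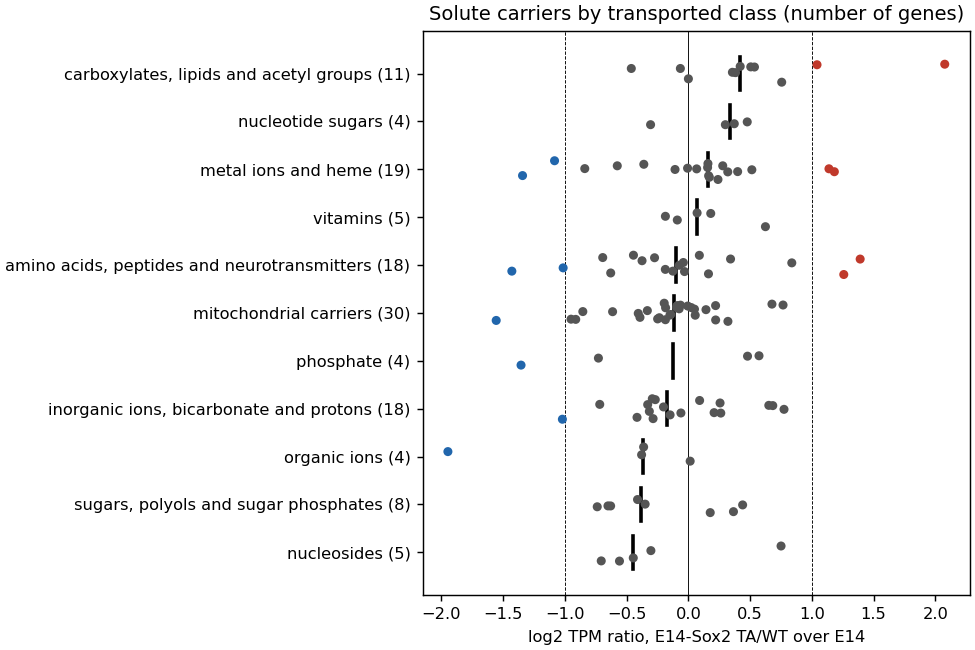
log2 TPM ratio (E14-Sox2 TA/WT over E14, horizontal) of the 126 carriers in 11 classes set by Slc family, with the number of genes in parentheses, 1 point per gene (vertical offsets are for legibility), red and blue for genes more than 2-fold higher and lower, and a black bar at each median. Some members carry a substrate other than that of the class name. The median runs from -0.45 for nucleosides to 0.42 for carboxylates, lipids and acetyl groups, and the points of every class straddle 0.

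The phosphate class, in which the Slc17 members carry other substrates, split by family. The cell-surface sodium-phosphate carriers were abundant and higher, Slc20a1 at TPMs of 128 and 190 with a log2 ratio of 0.57 (0.54 to 0.61) and Slc20a2 at 74.3 and 104 with 0.48 (0.44 to 0.52). The Slc17 members were lower, Slc17a9 as above and Slc17a5, which exports sialic acid from lysosomes, at -0.73 (11.4 and 6.86). The nucleoside class, set by family, was lower in 4 of 5 genes. Slc29a1, the abundant equilibrative carrier of the cell surface, was at 343 and 252, a log2 ratio of -0.45 (-0.48 to -0.41), while Slc29a2, with the same substrates, was at 10.2 and 17.2, a ratio of 0.75 (0.61 to 0.89). Slc29a4, a monoamine carrier, was at -0.71, the concentrative Slc28a1 at -0.56 and the lysosomal Slc29a3 at -0.30. Slc29a1 was the most abundant of the 5 in both libraries.

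Carriers of inorganic ions, bicarbonate and protons numbered 18, with 7 higher, 11 lower and a median of -0.17. The cation-chloride cotransporters lay apart: Slc12a2, which brings sodium, potassium and chloride in, was at TPMs of 12.0 and 20.6 (log2 ratio 0.77), and Slc12a7, which lets potassium and chloride out, at 56.1 and 34.1 (-0.72). Slc12a4, also an outward cotransporter, was at 0.26. Of their regulators, the kinases Wnk1, Wnk3 and Oxsr1 were expressed, with log2 ratios of 0.63, 0.60 and 0.37 and none past 2-fold. In the bicarbonate family Slc4, Slc4a2 was at 0.68, Slc4a7 at 0.26, Slc4a11 at -0.29, Slc4a3 at -0.33 and Slc4a8 at -1.02. Of the sodium-proton exchangers, Slc9a5 was at 0.21 and Slc9a8 at -0.20. The sulfate carrier Slc26a2 was at 0.65. With GC and length trends removed, Slc4a7 turned to -0.34 and Slc26a2 was at 0.17. The same removal put Wnk1, Wnk3 and Oxsr1 at 0.23, 0.31 and 0.20. Among the sodium and calcium pumps that keep up the gradients, 1 of 9 expressed genes was past 2-fold, Atp1b2 at 32.2 and 14.03 (-1.20).

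Of 18 members of the amino acid, peptide and neurotransmitter class outside the excluded set, 6 were higher and 12 lower, with a median of -0.10. Slc38a4, a neutral amino acid carrier and the most abundant of them, was at TPMs of 257 and 166, a log2 ratio of -0.63 (-0.66 to -0.60), and Slc38a3 was at -0.69. The taurine carrier Slc6a6 was at 58.7 and 105 (0.84), and the creatine carrier Slc6a8 of the same family at 62.2 and 45.7 (-0.44). Slc7a6, the closest relative of Slc7a7, was at 49.0 and 62.1 (0.34). The other peptide carriers, Slc15a2 and Slc15a4, were at 0.16 and -0.03. Of the 11 excluded carriers at the same mean level, none was past 2-fold higher and 3 were lower. Of all expressed genes, 4.2% were higher and 4.43% lower.

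Of 8 members of the sugar and sugar phosphate class, 5 were lower, with a median of -0.38. The glucose-6-phosphate carrier Slc37a4 was at -0.74 (TPM 9.51 and 5.71), Slc2a8 at -0.65, the sugar carrier Slc50a1 at -0.63 and Slc45a4, the most abundant, at -0.35 (45.0 and 35.3), whereas the multivitamin carrier Slc5a6 was at 0.44 and the inositol carrier Slc5a11 at 0.37. Of the Slc35 nucleotide sugar family, the symbol rule kept Slc35a1 (CMP-sialic acid) at 0.37, Slc35a4 at 0.48, Slc35a3 (UDP-N-acetylglucosamine) at 0.30, or -0.14 with GC and length trends removed, and Slc35a2 (UDP-galactose) at -0.31. Slc35 genes with another letter fell outside the rule and are counted at the end. None of the sugar and nucleotide sugar carriers was past 2-fold. Vitamin carriers were the ascorbate carrier Slc23a2 at 0.62 (11.7 and 18.1), the folate carriers Slc46a1 and Slc19a1 at 0.18 and -0.19, the thiamine carrier Slc19a2 at 0.07 and the riboflavin carrier Slc52a2 at -0.09. Of 4 folate genes, Ggh, which trims polyglutamate from folate, was past 2-fold higher at 6.74 and 13.6 (1.02), and Folr1 was at 57.2 and 30.9 (-0.89). Ggh was under 2-fold on the FPKM ratio (0.87) and with GC and length trends removed (0.88). Among organic ion carriers other than Slc22a7, the carnitine carrier Slc22a5 was at -0.38, Slc22a17 at -0.36 and Slc47a1 at 0.01.

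By position, carriers on chromosome 9 had a median log2 ratio of -0.48 over 8 genes, where all expressed genes of that chromosome had 0.02, and carriers on chromosome 2 had -0.24 over 14 genes, where all had 0.08. On chromosome 17 the carriers had -0.40 over 6 genes, where all had 0.02. Carriers on chromosome 3 had 0.38 over 7 genes, where all had 0.09, and those on chromosome 18 had 0.48 over 5 genes, where all had 0.14. On chromosome 15 the median was -0.34 over 10 carriers and -0.15 over all 440 genes, and on chromosome 8 it was 0.23 over 10 carriers and 0.27 over 594 genes. On chromosome 8 the carriers were close to their neighbours. Only some of the chromosomes with carriers are named here, most of them with a carrier median well away from that of all genes. Among the others, chromosome 7 (-0.07 over 3 carriers, -0.03 over all) and chromosome 19 (0.07 over 2, 0.09 over all) lay close. Chromosome 13 (-0.27 over 3, 0.17 over all) did not. An effect of position was not tested. By level, the 32 carriers with the lowest mean TPM, 5.28 to 10.8, had a median of -0.29 where all genes of that range had 0.00, and the 31 with the highest, from 38.4, had 0.07 where all had 0.09. Annotation limits some values: 11 carriers share over 10% of their 75-base stretches with another gene, among them Slc39a7, Slc39a1, Slc25a5, Slc38a6, Slc33a1, Slc16a6, Slc22a5, Slc5a6, Slc25a33 and Slc4a2, and how such reads were counted is not given.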

How the data were processed

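Polyadenylated RNA of 1 library per genotype was sequenced on an Illumina NovaSeq. The submitters' processing notes name bcl2fastq 2.20.0, Trimmomatic, HISAT2 2.1.0 and StringTie 2.1.3b. They list mm10 beside hg19, and the gene coordinates used here are GRCm38. The deposited table holds read counts per gene, and the authors also deposited FPKM (scaled to total reads and transcript length) and TPM (length-normalised, with the same sum in each library). The handling of strand and of multiply mapped reads is not given in the sources used here. At no carrier did TPM depart by over 1% from its constant ratio to FPKM.

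The log2 ratio was taken from TPM without a pseudocount, and its interval from the counts (Clopper-Pearson, scipy 1.17.1), with total counts of 60263536 and 44609228. No test was possible with 1 library per genotype, so no p-value was computed; edgeR 4.0.16 and DESeq2 1.42.0 gave scaling factors only. The ratio and interval code was tested on simulated data. Sharing of 75-base stretches was counted over GENCODE vM21 transcripts, and promoters came from RefSeq. Classes were set by Slc family. Named were the carriers past 2-fold, families of at most 3 members, in larger families the 3 most abundant and the 3 highest and 3 lowest, the 3 genes on each side of the TPM limit, and partner genes past 2-fold or most abundant in their list, with others of these lists for comparison. Not every gene so named has its values printed, and some are not reported here. The members and lists were chosen with earlier results of these data known. Alternatives were other scalings, a pseudocount of 1, TPM limits of 1 and 10, fold limits of 1.5 and 3, the counting interval and removal of trends on GC content and length in 20 bins.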

Additional observations from a re-analysis of the deposited data

How the results depend on the processing

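The 14 carriers past 2-fold kept their sign under TMM scaling, median-of-ratios scaling, the FPKM ratio, centring, a pseudocount of 1 and removal of GC and length trends. Of these 84 values 77 stayed past 2-fold; the 7 others belong to Slc15a1, Slc16a3, Slc39a10, Slc48a1 and Slc4a8. The median log2 ratio of the carriers, -0.07, was -0.11 with TMM, -0.0916 with median-of-ratios, -0.21 on FPKM, -0.14 after centring and -0.0923 without the trends. With a mean TPM of at least 1, 11 were higher and 26 lower of 186 carriers, with a median of -0.10. Genes of all kinds were also more often past 2-fold lower at low levels. Between a mean TPM of 1 and 5, 343 were higher and 662 lower of 2932. At 5 and above, 434 were higher and 458 lower of 10337. With at least 10, 5 were higher and 5 lower of 98, with a median of -0.0056, and with 10 in at least 1 library the median was -0.0407. At 1.5-fold 15 were higher and 21 lower, and at 3-fold 1 and 1. The whole counting interval lay past 2-fold for 5 higher and 5 lower. For the TPM limit of 10, for 3-fold and for the counting interval, no share over all genes is given, so these counts describe the carriers only. Removing the GC and length trends moved Slc12a2 from 0.77 to 0.45, Slc25a28 from -0.61 to -0.31, Slc50a1 from -0.63 to -0.26 and Slc25a36 from -0.19 to -0.58. The median of the vitamin class changed sign under FPKM and centring, as did those of the Slc9, Slc15, Slc19, Slc30, Slc31 and Slc47 families under some setting; the cause was not tested. Counting intervals spanned from 0.04 to 0.52 on the log2 scale. No paired analysis was possible because each genotype had 1 library.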

Other observations

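Below the TPM limit lay 193 further Slc genes, 47 of them without a read in either library. Of the 60 with a mean TPM between 1 and 5, 5 were past 2-fold higher and 18 past 2-fold lower, with a median log2 ratio of -0.54, beside 343 higher and 662 lower of all 2932 genes in that range. The whole counting interval lay past 2-fold for 4 and 9 of them. Slc5a5, the sodium-iodide carrier, was at TPMs of 1.64 and 6.86 (log2 ratio 2.07), and Slc39a8, a zinc and manganese carrier related to Slc39a14, at 0.85 and 2.76 (1.70). On the other side, the citrate carrier Slc13a5 had a log2 ratio of -1.65, the sulfate carrier Slc13a4 -2.57 and the glutamate carrier Slc1a1 -1.56. These genes were picked after their values were seen.

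Of 50 ABC transporters 22 were expressed, 7 higher and 15 lower, with Abcg2 past 2-fold higher (1.15), Abcg1 past 2-fold lower (-1.11) and a median of -0.22, beside 0.07 over all expressed genes. With GC and length trends removed, Abcg2 was under 2-fold (0.72) and Abcg1 was at -1.22. Of 27 Slc symbols with a letter other than a, most of them Slc35 genes, 18 were expressed, 9 higher and 9 lower, none past 2-fold. Of 15 Slco organic anion transporters, Slco4a1 alone was expressed, at a TPM of 14.4 and 12.4.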
